A study of Homo sapiens with 4 samples.

Results

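The miR-34 family was followed through small RNA sequencing of 4 human liver cancer cell populations. Its members were the 4 miRNAs listed as hsa-miR-34a, hsa-miR-34b, hsa-miR-34c-5p and hsa-miR-34c-3p among the 1733 miRNAs of the count tables, chosen by name. Total RNA came from 2 hepatoma cell lines, Hep3B and Huh7, called HCC cells here, and from Hep3B-C and Huh7-C, the stem-like cells (HCSCs) cultured from each of them. No treatment, time point or genetic change is given in the labels for any of the 4 populations. There was 1 library per condition, so no value below has a replicate, each pair compares 2 libraries and not 2 conditions, and all intervals hold counting error only.

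A miRNA is cut from a hairpin and guides silencing of mRNAs through its seed, bases 2 to 8 from its 5′ end. miR-34a is known as a tumor suppressive miRNA that represses genes of cell cycle progression, survival and stemness such as CDK6, MYC, BCL2, MET, NOTCH1 and CD44. In most adult tissues miR-34a is the abundant member, while miR-34b and miR-34c, which share 1 primary transcript, are known from ciliated epithelium and testis, where the related miR-449 family is also made.

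The sequences are shown because the arms are separated by their letters alone and the seed decides which members can share targets. They are RefSeq sequences on GRCh38.p14, read 5′ to 3′ with the seed in capitals, and 8 of 9 names searched were matched there, all but hsa-miR-34c-5p. The name used in the count tables stands first.

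hsa-miR-34a: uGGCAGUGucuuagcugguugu
hsa-miR-34a*: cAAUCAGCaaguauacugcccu
hsa-miR-34b*: uAGGCAGUgucauuagcugauug
hsa-miR-34b: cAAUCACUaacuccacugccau
hsa-miR-34c-3p: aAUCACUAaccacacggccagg
hsa-miR-449a: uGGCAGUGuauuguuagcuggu
hsa-miR-449b: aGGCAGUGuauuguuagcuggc
hsa-miR-449c: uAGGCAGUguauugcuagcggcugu

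miR-34 and miR-449 are known as families of related seeds. The seed GGCAGUG of miR-34a was also that of miR-449a and miR-449b. The seed of miR-34b*, AGGCAGU, overlaps it but is moved by 1 base, and was shared with miR-449c and miR-2682-5p. The arms miR-34b and miR-34c-3p each had a seed found in no other human mature miRNA of the table. As no sequence of miR-34c-5p was matched, its seed and shared runs are not given. Its absence from these groups is not evidence that its seed differs from that of miR-34a. Across whole sequences, the longest run shared by miR-34a and miR-449a was 9 bases, and by miR-34b and miR-34c-3p 10 bases, below the shortest read of 18 nt that was kept, while miR-449a and miR-449b shared 20 bases.

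The family sits at 2 places in the genome. The MIR34A hairpin spans chr1:9151668-9151777 on the minus strand (110 bases) and overlaps an exon of the lincRNA MIR34AHG in GENCODE release 29, 30561 bases from that host's RefSeq start. MIR34B (chr11:111512938-111513021, 84 bases) and MIR34C (chr11:111513439-111513515, 77 bases) lie on the plus strand, 417 bases apart and 2336 and 2837 bases from the RefSeq start of MIR34BHG, and overlap no other gene in GENCODE. These positions are on GRCh38, while the reads had been mapped to the older NCBI36 build.

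The libraries differed in depth and make-up. The miRNA counts were between 1739278 (Hep3B) and 5741567 (Huh7), and they were 10.4% of the total reads in Hep3B against 35.2% to 54.1% in the other three. Between 664 and 773 miRNAs had at least 1 count. Levels are given as TPM, counts scaled to 1000000 total reads, in which 1 read was worth 0.0596 to 0.0941 TPM and 3 counts, taken as the detection limit, 0.179 to 0.282 TPM. The hepatocyte marker miR-122 was at 397 counts in Hep3B and at 144814 to 489443 in the other libraries. The low miRNA share of Hep3B touches every comparison with that library, so values scaled to miRNA counts are given beside the members' fold-changes there.

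All 4 members had at least 1 count in Huh7 and Huh7-C, and 2 of 4 in Hep3B and Hep3B-C, but only miR-34a and miR-34c-5p had at least 10 counts in at least 2 libraries. The 4 rows together held 155 counts (9.24 TPM) in Hep3B and 224 (14.5 TPM) in its HCSCs. They held 9701 (913 TPM) in Huh7 and 2113 (197 TPM) in Huh7-C. As a share of miRNA counts the order in the Hep3B pair was reversed, 0.00891% in Hep3B and 0.00413% in Hep3B-C. In Huh7 and Huh7-C the 4 rows were 0.169% and 0.0522%. Nearly all of these reads were miR-34a in the Hep3B pair and miR-34c-5p in the Huh7 pair.

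miR-34a had 154 and 214 counts in Hep3B and Hep3B-C and 292 and 24 counts in Huh7 and Huh7-C. In TPM and in that order these were 9.18 (95% exact Poisson interval 7.78 to 10.7), 13.9 (12.1 to 15.8), 27.5 (24.4 to 30.8) and 2.24 (1.44 to 3.33). Huh7 was highest and Huh7-C lowest, and no 2 intervals overlapped. Scaled to 1000000 miRNA counts instead, the order was different, with 88.5 in Hep3B, 50.9 in Huh7, 39.4 in Hep3B-C and 5.93 in Huh7-C. Huh7-C was lowest on both scales, and miR-34a ranked 135th to 276th among all miRNAs.

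miR-34c-5p, the guide arm of MIR34C, had 1 and 10 counts in Hep3B and Hep3B-C and 9388 and 2086 counts in Huh7 and Huh7-C. Its level was 0.0596 TPM (0.00151 to 0.332) in Hep3B, under the detection limit, and 0.648 TPM (0.311 to 1.19) in Hep3B-C. It was 884 TPM (866 to 902) in Huh7 and 195 TPM (186 to 203) in Huh7-C. The order was Huh7, Huh7-C, Hep3B-C and Hep3B on this scale, and the intervals of Hep3B-C and Hep3B overlapped slightly. Relative to 1000000 miRNA counts the order was the same, at 1635, 516, 1.84 and 0.575. It ranked 33rd in Huh7 and 62nd in Huh7-C, against 449th and 548th in Hep3B-C and Hep3B.

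**Figure D1:**
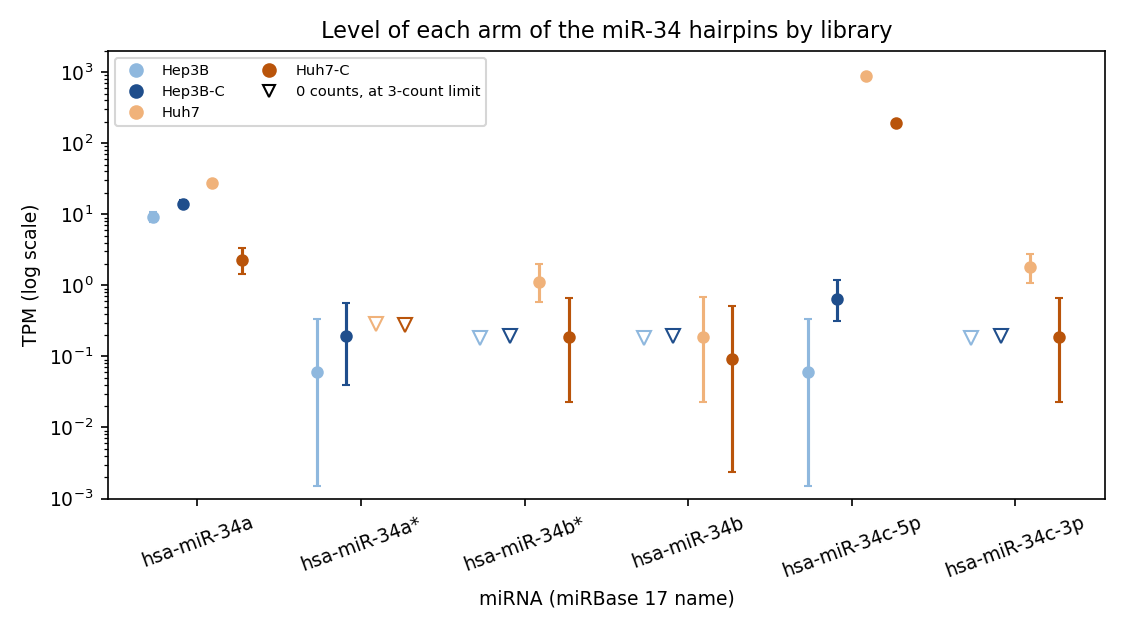
TPM on a log scale for each arm of the miR-34a, miR-34b and miR-34c hairpins, with 1 point per library, 95% exact Poisson bars, and open triangles at the 3-count limit for libraries with 0 counts. miR-34c-5p is at 884 TPM in Huh7 and 195 TPM in Huh7-C and below 1 TPM in both Hep3B libraries, whereas miR-34a lies between 2.24 and 27.5 TPM in all 4.

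The remaining members were scarce. miR-34c-3p, the other arm of MIR34C, had 19 counts in Huh7, 2 in Huh7-C and 0 in both Hep3B libraries. miR-34b had 2 in Huh7, 1 in Huh7-C and 0 in the others, below the detection limit in every library. Its sister arm miR-34b*, which carries the miR-34-like seed, had 12 counts in Huh7, 2 in Huh7-C and 0 in the others, and miR-34a* had 1 in Hep3B, 3 in Hep3B-C and 0 in the others. So every arm of the chromosome 11 locus apart from miR-34c-5p was at 0 in both Hep3B libraries. Of the miR-449 family, which shares the seeds, miR-449a, miR-449b and miR-449c summed to 3 and 1 counts in Hep3B and Hep3B-C and to 11 and 5 in Huh7 and Huh7-C.

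Within a hairpin the 5′ arm made up most of the reads. miR-34a was 154 of 155 counts of its hairpin in Hep3B and 214 of 217 in Hep3B-C, and it was the only arm seen in Huh7 (292 of 292) and Huh7-C (24 of 24). miR-34c-5p was 9388 of 9407 counts in Huh7 (99.8%, 95% Clopper-Pearson interval 99.7 to 99.9) and 2086 of 2088 in Huh7-C. For MIR34B the 5′ arm miR-34b* was 12 of 14 counts in Huh7 (85.7%, 57.2 to 98.2). No arm ratio passed Fisher's exact test between libraries (7 tests, every adjusted p = 1.0), and the intervals were wide: for MIR34C in Huh7-C against Huh7 the odds ratio was 2.11 (0.509 to 18.7). MIR34C gave far more reads than MIR34B, with miR-34c-5p at 99.6% and 99.8% of all reads from the chromosome 11 locus in Huh7 and Huh7-C.

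The ratio of miR-34c-5p to miR-34a is taken within a library and does not depend on library size. It was chosen after the counts were seen, so its p-values describe these same counts and hold counting error only. miR-34c-5p was 0.645% of the sum of both in Hep3B (1 of 155, 0.0163 to 3.54), and 4.46% in Hep3B-C (10 of 224, 2.16 to 8.06). It was 97.0% in Huh7 (9388 of 9680, 96.6 to 97.3) and 98.9% in Huh7-C (2086 of 2110, 98.3 to 99.3). miR-34a was thus the prevailing member in both Hep3B libraries and miR-34c-5p in both Huh7 libraries. The odds ratio was 4934 (866 to 196828) for Huh7 against Hep3B and 1808 (840 to 4324) for Huh7-C against Hep3B-C, with adjusted p = 1.09e-217 and 1.17e-259 by Fisher's exact test, 2-sided, over 4 comparisons. HCSCs had the higher share in each line, with an odds ratio of 2.70 (1.78 to 4.30, exact adjusted p = 1.96e-07) in the Huh7 pair and 7.17 (1.001 to 314, exact adjusted p = 0.0312) in the Hep3B pair, the latter resting on 1 and 10 counts.

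**Figure D2:**
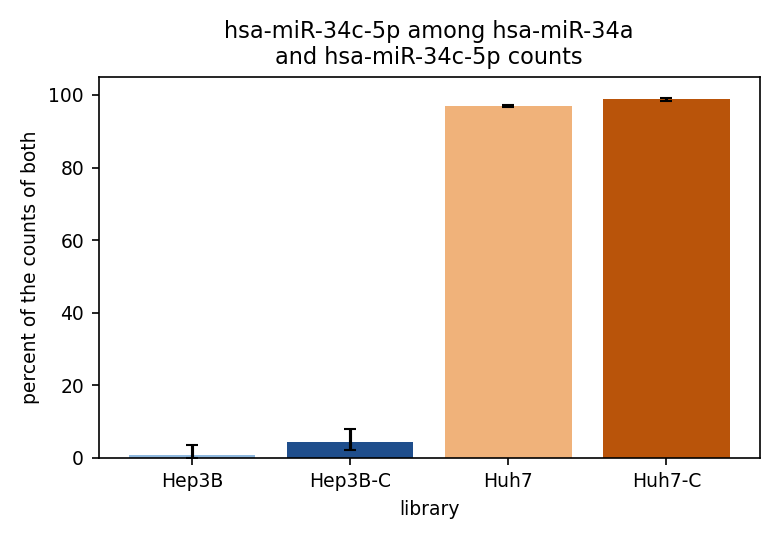
Share of miR-34c-5p in the sum of miR-34a and miR-34c-5p counts, in percent, for each of the 4 libraries with 95% Clopper-Pearson bars. The Hep3B libraries sit at 0.645% and 4.46% and the Huh7 libraries at 97.0% and 98.9%.

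In Huh7-C against Huh7, 3 of the 4 members were down-regulated and none was up-regulated. Of these, miR-34a alone kept its call when a biological coefficient of variation of 0.4 was assumed, narrowly (adjusted p = 0.00953 by edgeR's exact test). That assumption was run with total reads as library sizes only. A miRNA was called where its TPM differed by 2-fold or more (1 on the log2 scale) and its adjusted p did not exceed 0.01 in the 2-sided exact Poisson test, with total reads as library sizes. Of the 772 miRNAs tested in this pair, 17.1% were called lower and 2.98% higher. miR-34a fell from 292 to 24 counts, 12.3-fold, a log2 fold-change of -3.62 (-4.28 to -3.02, exact adjusted p = 1.85e-59). miR-34c-5p fell from 9388 to 2086 counts, 4.54-fold, a log2 fold-change of -2.18 (-2.25 to -2.11). miR-34c-3p fell from 19 to 2 counts (log2 -3.26, -6.41 to -1.21, exact adjusted p = 0.000417). Against the median of the 431 miRNAs with at least 10 counts in a library of this pair, -0.66, miR-34a lay at -2.95 and miR-34c-5p at -1.52. Among the same 431 miRNAs, miR-34a had the 16th lowest fold-change, miR-34c-3p the 20th and miR-34c-5p the 62nd. miR-34b, at 2 and 1 counts, was not called, nor was miR-34b* at 12 and 2 (log2 -2.60, -5.80 to -0.43, exact adjusted p = 0.0206).

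In Hep3B-C against Hep3B, 0 of the 2 members tested were called, where 33.0% of 834 miRNAs were called higher and 2.52% lower. miR-34a was 1.51-fold higher (log2 0.59, 0.29 to 0.90, exact adjusted p = 0.00029), short of the fold required, while the median of the 475 miRNAs with at least 10 counts stood at 1.42, and relative to it miR-34a lay at -0.83. With miRNA counts in place of total reads the direction turned, to a log2 fold-change of -1.17 (exact adjusted p = 6.11e-13), which met the criteria for a decrease. With TMM and DESeq2 size factors it was -0.82 and -0.58. miR-34c-5p, at 1 and 10 counts, had a log2 fold-change of 3.44 (0.63 to 8.88, exact adjusted p = 0.0178) and was not called. Scaled to miRNA counts its log2 fold-change was 1.68 (exact adjusted p = 0.621).

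The 10 counts of miR-34c-5p in Hep3B-C were 0.0733% of its TPM in Huh7. Some other miRNAs abundant in Huh7 also had few reads in the Hep3B libraries. miR-196a had 10 and 17 counts in Hep3B and Hep3B-C against 35807 in Huh7, miR-452 had 0 and 3 against 9769, and miR-224 had 0 and 1 against 2326. These were 0.0211% to 0.0327% of the Huh7 level in Hep3B-C. Whether reads from another library contribute to such counts was not tested.

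The change differed between the lines for both abundant members, but the typical miRNA also moved differently. With total reads as library sizes, the median log2 fold-change of miRNAs with at least 10 counts was 1.42 for Hep3B-C against Hep3B. For Huh7-C against Huh7 it was -0.66. The differences given first below, with total reads, hold this shift as well. With the other 3 library sizes these medians lay between -0.35 and 0.24. How many other miRNAs differ as much was not tested. The log2 fold-change of miR-34a in the Huh7 pair minus that in the Hep3B pair was -4.21 (-4.94 to -3.52, exact conditional p = 2.78e-51), and with the other 3 library sizes it was -2.48 to -1.93. For miR-34c-5p the difference was -5.62 (-11.06 to -2.81, exact conditional p = 3.51e-07), resting on the single count in Hep3B, and -3.89 to -3.34 with the other library sizes. Both were taken from single libraries and hold no spread between cultures.

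**Figure D3:**
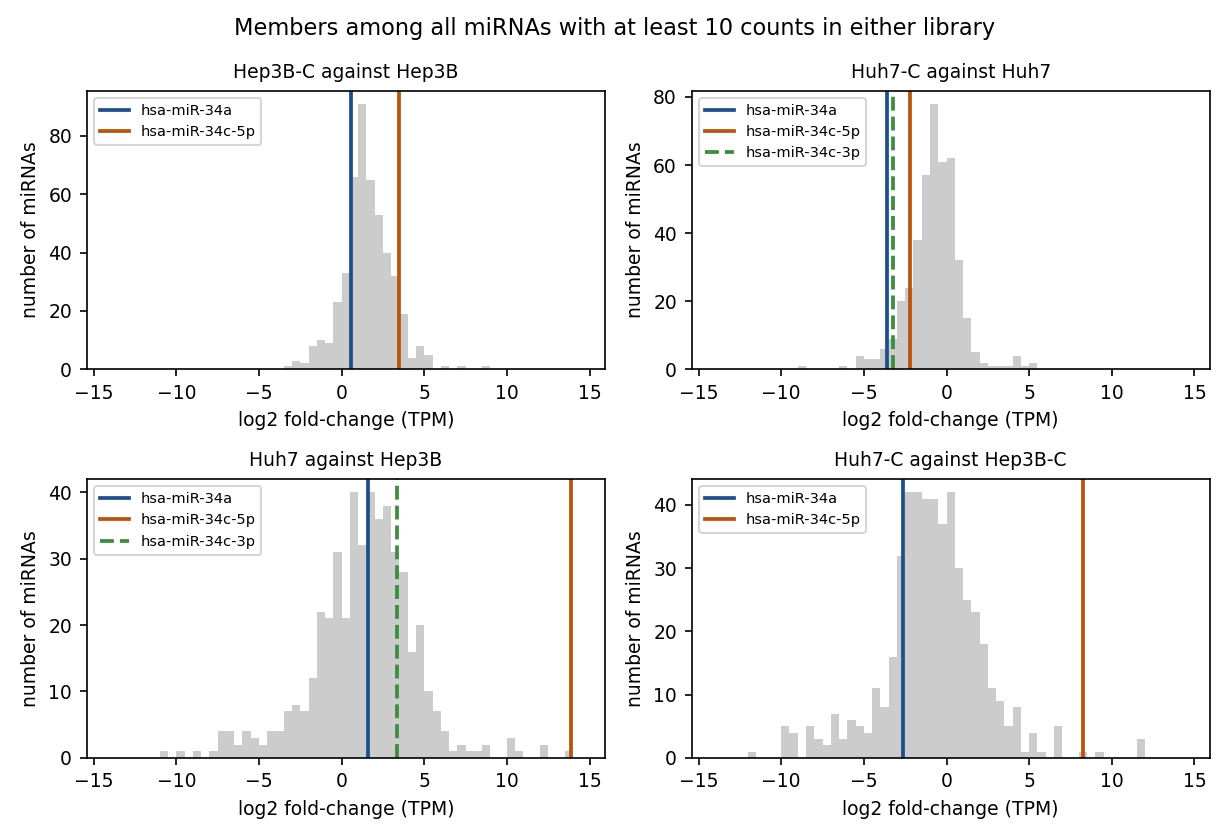
Histograms of log2 fold-change in TPM over miRNAs that reached 10 counts in a library of the comparison, 1 panel per comparison, with miR-34a and miR-34c-5p marked by solid and miR-34c-3p by dashed coloured lines. miR-34a lies at -3.62 and miR-34c-5p at -2.18 in Huh7-C against Huh7, and miR-34c-5p at 13.86 is at the far right in Huh7 against Hep3B.

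Between the parent lines, 3 of the 4 members were called higher in Huh7 than in Hep3B, where 32.4% of 828 miRNAs were called higher. Scaled to miRNA counts, of these miR-34c-5p alone was still called. miR-34c-5p stood at 9388 counts against 1, a ratio of 14832 (2662 to 585915) and a log2 fold-change of 13.86 (11.38 to 19.16). Scaled to miRNA counts it was 11.47. Its interval took in the values of miR-196a, 12.47 (35807 against 10 counts), and of miR-452, 12.33 (9769 against 0, taken as 3 counts). The 1 count of miR-34c-5p in Hep3B, under the detection limit, was left as it was and not taken as 3. No order is therefore read among these miRNAs. With the 0 in Hep3B taken as 3 counts, miR-34c-3p, 19 against 0, was 10.01-fold higher and miR-34b*, 12 against 0, 6.32-fold. The lower limits of their exact intervals were 7.37-fold and 4.39-fold. These folds and limits hold for total reads as library sizes only. The fold of miR-34b* was not computed with miRNA counts, where it would be smaller, as it was for the members. For miR-34c-3p the value with 3 counts was 3.32 on the log2 scale and 0.94 when scaled to miRNA counts, under the fold required. miR-34a was 2.996-fold higher (log2 1.58, 1.30 to 1.87, exact adjusted p = 3.87e-29), close to the median of the 476 miRNAs with at least 10 counts, 1.59. With miRNA counts in place of total reads it was lower instead (-0.80), and with TMM and DESeq2 size factors it was no longer called (0.12 and 0.14).

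Between the HCSCs, Huh7-C against Hep3B-C, 1 member was called higher and 1 lower, where 13.6% and 23.0% of 868 miRNAs were called higher and lower. miR-34c-5p was 300.6-fold higher (163 to 628; log2 8.23, 7.35 to 9.29), the 5th highest of 502 miRNAs with at least 10 counts, a count of 0 being taken as 3. miR-34a was 6.19-fold lower (log2 -2.63, -3.30 to -2.02, exact adjusted p = 2.10e-25), at 214 counts in Hep3B-C and 24 in Huh7-C. Relative to the median of -0.82 it lay at -1.81. The 4 comparisons share libraries, so they are not independent of each other.

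**Figure D4:**
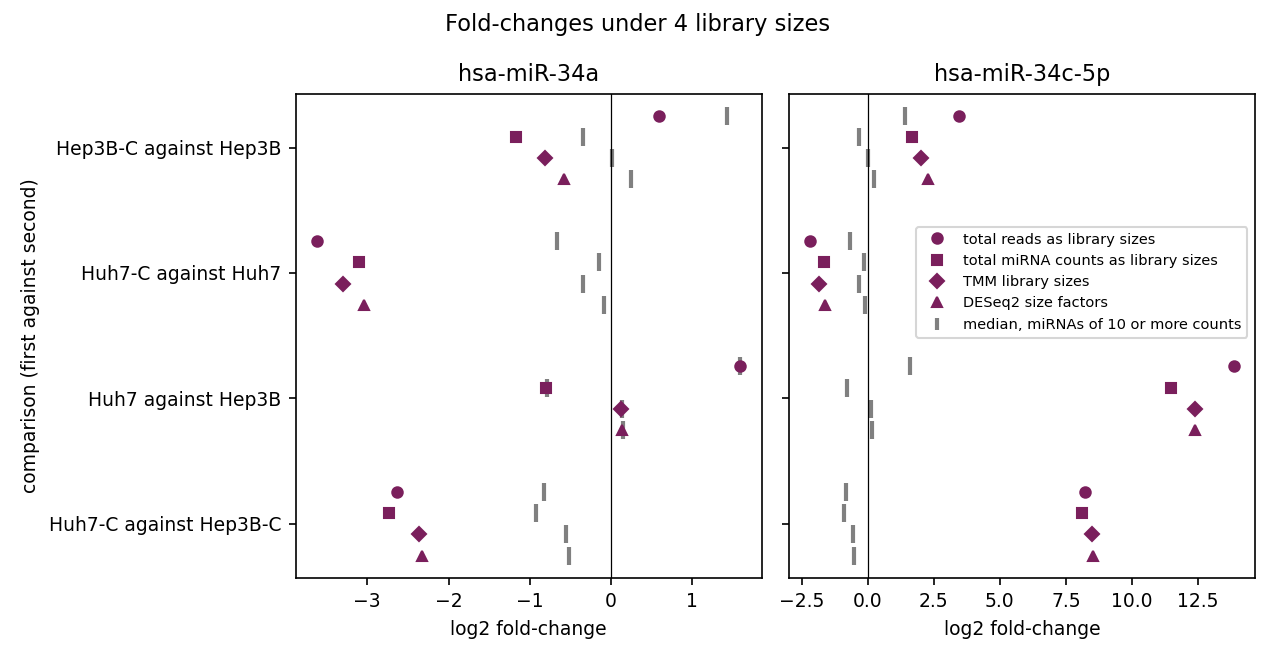
Log2 fold-change of miR-34a (left) and miR-34c-5p (right) in the 4 comparisons under 4 choices of library size, with grey bars for the median of the miRNAs with at least 10 counts under the same choice. The direction of miR-34a changes with the library size in the 2 comparisons that involve Hep3B, and that of miR-34c-5p in none of the 4.

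When both lines were fitted together with edgeR's quasi-likelihood test, which takes the lines as replicates of a state and the states as replicates of a line, only the line effect of miR-34c-5p passed. It was higher in the Huh7 libraries by 10.08 on the log2 scale (edgeR adjusted p = 0.0300), where 9.71% of 443 miRNAs were called higher. The line effect of miR-34a was -0.89 (edgeR adjusted p = 0.481). For HCSCs against HCC cells the effects were -1.80 for miR-34a (edgeR adjusted p = 0.584) and -0.45 for miR-34c-5p (edgeR adjusted p = 0.906). That fit called 0 of 443 miRNAs (0.0%) between HCSCs and HCC cells, with 31 at an unadjusted p under 0.05, while DESeq2 called 4 higher and 1 lower. The edgeR fit had 1 residual degree of freedom. Fits with 1 library left out had no line term, so their HCSC effects also held the difference between the lines. They gave -2.90 (without Hep3B-C) and -0.75 (without Huh7-C) for miR-34a. For miR-34c-5p they gave -9.32 (without Huh7-C) and 9.83 (without Huh7), which cannot be read as a spread of the HCSC effect.

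The miRNAs most like a member across the 4 libraries were found by the root mean square difference of log2 TPM, centred on each miRNA and with 0.5 counts added, among 442 candidates. Nearest to miR-34a were miR-3909 (0.38), miR-23b* (0.50), miR-30a (0.57), miR-27b (0.63) and miR-125a-3p (0.64). Of these miR-30a was abundant, with 24819 and 33017 counts in Hep3B and Hep3B-C and 79756 and 9728 in Huh7 and Huh7-C, highest in Huh7 and lowest in Huh7-C as miR-34a was in TPM. miR-3909 and miR-23b* had at most 20 counts in any library. Nearest to miR-34c-5p were miR-224 (1.16), miR-196a (1.28), miR-452 (1.49), miR-3660 (1.61) and miR-10a (1.70), at a larger distance. miR-224, miR-196a and miR-452 had at most 17 counts in either Hep3B library. Among 10 miRNAs of 1000 or more counts in both Huh7 libraries and under 1% of the Huh7 TPM in Hep3B, the 9 besides miR-34c-5p had log2 fold-changes of -1.77 (miR-122) to 0.22 (miR-1299) in Huh7-C against Huh7, where miR-34c-5p had -2.18. The limit of 1000 counts in Huh7-C can leave out miRNAs that fell further. miR-451, under that limit, had 1 count in both Hep3B libraries, 773 in Huh7 and 2 in Huh7-C.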

How the data were processed

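Per the study's methods, small RNA reads were cleaned, cut off below 18 nt, aligned to the NCBI36 human build and assigned to miRBase release 17. The authors deposited raw counts per miRNA in 1 table per library. No replicate exists. TPM was computed here as counts scaled to 1000000 total reads of each library, with the totals the study gives.

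Pairs of libraries were compared by Audic and Claverie's exact Poisson test, Benjamini-Hochberg adjusted over all miRNAs seen in either library. A count of 0 was set to 3 counts, and the exact lower limit of such a fold can be smaller than the fold given. Counts of 1 and 2 were left as they were. Intervals are exact binomial or Poisson ones at 95%. All 4 libraries were also fitted with edgeR 4.0.16 (R 4.3.3; TMM, line plus state, miRNAs of 10 or more counts in 2 or more libraries, adjusted p of 0.05). DESeq2 1.42.0, other library sizes, a count filter and an assumed biological coefficient of variation of 0.4 were alternatives. The ratio of miR-34c-5p to miR-34a was added after the data were seen. Scripts were tested on simulated data, with counting noise only for the pairs and with less spread than these data for the edgeR fit. Such runs do not show how the tests behave at the spread of these data.

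The same parent line paired the libraries: deviations from the state means correlated within a line (r = 0.833 over 443 miRNAs). Named were the members, their other arms, miRNAs of the same seed and the 5 nearest patterns of each abundant member. miR-122, miR-196a, miR-452, miR-224, miR-1299, miR-10b and miR-451 were also named, after their values were seen. Members and tests were chosen with earlier results of these data known. The mRNA libraries were not analysed here, and 1 further item with the miRNAs tied to it is not reported here.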

Additional observations from a re-analysis of the deposited data

Results flagged for a closer look

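The change from HCC cells to HCSCs differed between the lines for both abundant members. The median miRNA with at least 10 counts also moved differently with total reads, by 1.42 for Hep3B-C against Hep3B and -0.66 for Huh7-C against Huh7. The differences with total reads hold this shift as well, and how many other miRNAs differ as much was not tested. miR-34a had a log2 fold-change of 0.59 for Hep3B-C against Hep3B and of -3.62 for Huh7-C against Huh7, a difference of -4.21 (95% exact conditional interval -4.94 to -3.52). With the other 3 library sizes the change in the Hep3B pair was negative, -1.17 to -0.58, and the difference -2.48 to -1.93. For miR-34c-5p it was 3.44 and -2.18, a difference of -5.62 (-11.06 to -2.81), with 1 count in Hep3B, and -3.89 to -3.34 with the other library sizes. Each condition had 1 library, so that line, culture and library cannot be told apart.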

How the results depend on the processing

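Of 92 alternative values over 17 results, 78 kept their direction and side of the threshold, 7 lost the call and 7 turned direction. With total miRNA counts as library sizes, miR-34a turned to -1.17 in Hep3B-C against Hep3B and to -0.80 in Huh7 against Hep3B, and miR-34c-3p in Huh7 against Hep3B came to 0.94, under the fold required. With TMM and DESeq2 size factors miR-34a turned to -0.82 and -0.58 in the first comparison and lost its call in the second at 0.12 and 0.14. An assumed biological coefficient of variation of 0.4 ended, at unchanged log2 fold-changes, the calls of miR-34c-5p (-2.18, adjusted p = 0.168 by edgeR's exact test) and miR-34c-3p (-3.26, 0.236) in Huh7-C against Huh7, of miR-34a in Huh7 against Hep3B (1.58, 0.179) and of miR-34a in Huh7-C against Hep3B-C (-2.63, 0.029). The decrease of miR-34a in Huh7-C kept its call. These scalings also moved the calls over all miRNAs: in Hep3B-C against Hep3B from 275 higher and 21 lower to 44 and 112 (miRNA counts), 71 and 76 (TMM) and 92 and 59 (DESeq2); in Huh7-C against Huh7 from 23 and 132 to 54 and 74, 38 and 90, and 57 and 71; in Huh7 against Hep3B from 268 and 76 to 83 and 249, 128 and 162, and 129 and 162; in Huh7-C against Hep3B-C from 118 and 200 to 108 and 212, 132 and 178, and 140 and 178.

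The edgeR fits with 1 library left out were made without the replicate block. Their state effect therefore also held the line difference, and their line effect the state difference. For HCSCs against HCC cells they gave -9.32 (without Huh7-C) to 9.83 (without Huh7) for miR-34c-5p. For miR-34a they gave -2.90 (without Hep3B-C) to -0.75 (without Huh7-C). The line effect of miR-34a was -2.50 (without Huh7) to 0.61 (without Huh7-C), and 0.075 without Hep3B. For miR-34c-5p the line effect was 9.22 to 11.96. With no replicate block and all libraries the latter was 10.30 (edgeR adjusted p = 0.00722), and over all its alternatives the adjusted p was 1.05e-16 to 0.0269. Without the block no call of a member changed. The line effect was called for 43 miRNAs higher and 43 lower, for 21 and 31 with total reads as library sizes, for 61 and 74 by DESeq2 and for 23 to 70 higher and 23 to 78 lower with 1 library left out, both lowest without Huh7-C and highest without Hep3B-C and without Hep3B. A single library per condition, 1 residual degree of freedom and at most 19 counts of miR-34b, miR-34b* and miR-34c-3p limit what these data can show. miR-34b had under 10 counts and gave no value under that filter.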
